A study of Ovis aries with 16 samples.

Results

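FCER1G, FCGR1A, FCGR2B and CLEC6A are receptor genes of microglia and other myeloid cells, and their RNA was followed in the hippocampus of fetal sheep under 4 treatments. Their probes were found as those whose gene name or description on the array names one of these genes, whatever their signal. This gave 6 probes for 4 genes, among 980 gene names on the array. Of the 15008 probes, 10.6% carried a gene name. Each of the 16 one-color Agilent arrays held the RNA of a single late-gestation fetus. The oxygen in the gas the mothers breathed was either kept normal or lowered for 30 min, and 23.5 h of normoxia came next before the hippocampus was taken at 24 h. Normoxia control (NC, n = 3) and hypoxia control (HC, n = 5) fetuses received no ketamine, whereas ketamine at 3 mg/kg i.v. preceded the stimulus in normoxia plus ketamine (NK, n = 4) and in hypoxia plus ketamine (HK, n = 4). HC-NC and HK-NK ask for the response to hypoxia without and with ketamine, and NK-NC and HK-HC ask for the effect of ketamine in each oxygen condition. Whole tissue was measured, so fewer cells of a type and less RNA per cell cannot be told apart.

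Fc receptors bind the constant part of antibodies and report antibody-coated particles to phagocytes. FCER1G encodes the common gamma chain, a small adaptor whose ITAM motif recruits SYK, and it carries the signal of FCGR1A, the activating high-affinity receptor for IgG. FCGR2B is the inhibitory counterpart with an ITIM motif, and CLEC6A (dectin-2) is a C-type lectin for microbial mannans that also signals through FCER1G. In the brain these receptors are known mainly from microglia and from macrophages at its borders. The array named 1 of 5 defining markers of microglia and macrophages, ITGAM, and did not name AIF1, CSF1R, CD68 or PTPRC, so the cell type behind the signals could be checked on few genes. Of the defining markers of hippocampus, GRIN1, GRIA1 and SST were well above background on all 16 arrays, and SNAP25 and PROX1 were not named on the array.

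The probe sequences are shown because they tell which probes read the same stretch of a transcript. Capitals mark the stretch that the FCER1G probes have in common. For FCER1G and FCGR2B the first 30 bases are given and for the others all 60 bases.
FCER1G, A_70_P002707: aGGTCCTACTGAACAGTGGGAAGGGACTAA
FCER1G, A_70_P002706: GGTCCTACTGAACAGTGGGAAGGGACTAAc
FCGR1A, A_70_P013681: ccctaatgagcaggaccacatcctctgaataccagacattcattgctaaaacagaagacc
FCGR2B, A_70_P010766: cacccagccagtgtaaattactcttattaa
CLEC6A, A_70_P008212: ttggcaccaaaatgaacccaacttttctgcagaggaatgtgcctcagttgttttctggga
CLEC6A, A_70_P008211: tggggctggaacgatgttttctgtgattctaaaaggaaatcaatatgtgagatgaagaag
The FCER1G probes share 59 of their 60 bases and so read the same stretch of the transcript. The CLEC6A probes cover bases 398 to 457 and 468 to 527 of their transcript record and do not overlap. With probes of other genes on the array the longest run of bases in common was 14, and 0 runs were over 20. In the RefSeq sheep annotation FCGR2B lies between FCGR3A and FCRLA, and CLEC6A lies between CLEC4A and CLEC4D, close relatives in both cases. The transcripts of these relatives were not searched for bases in common with the probes.

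Values below are log2 signals minus the 75th percentile of their array, so that 0 is the level of that percentile, which lay between 882 and 1199 intensity units. The scanner software marked a spot as well above background when it exceeded the background by 13 standard deviations, and 76.7% to 82.6% of the spots of an array did. Each of the 6 probes met this on 3 or more of the 16 arrays and was tested, among 12543 probes in all. For FCGR2B and CLEC6A most of the arrays that met this were HC or HK arrays, so their passing the filter is tied to those groups. Replicates 1 and 2 of each group lay on slide 1 and the others on slide 2. In HC-NC, 4 of 6 probes were higher in HC at an unadjusted p under 0.05 in limma's moderated test, called the criterion here. Both CLEC6A probes are among these 4, so the count is a description only. Over all probes tested, 4.54% were higher and 6.27% lower at the criterion in HC-NC, 10.8% in either direction. The median log2 difference was 1.12 over the 6 probes, or 0.92 with FCGR2B and CLEC6A at the lower bounds given with them, and -0.03 over all probes tested. After Benjamini-Hochberg adjustment over all probes tested 0 of the 6 probes passed, against 0.0159% of all probes.

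**Figure D1:**
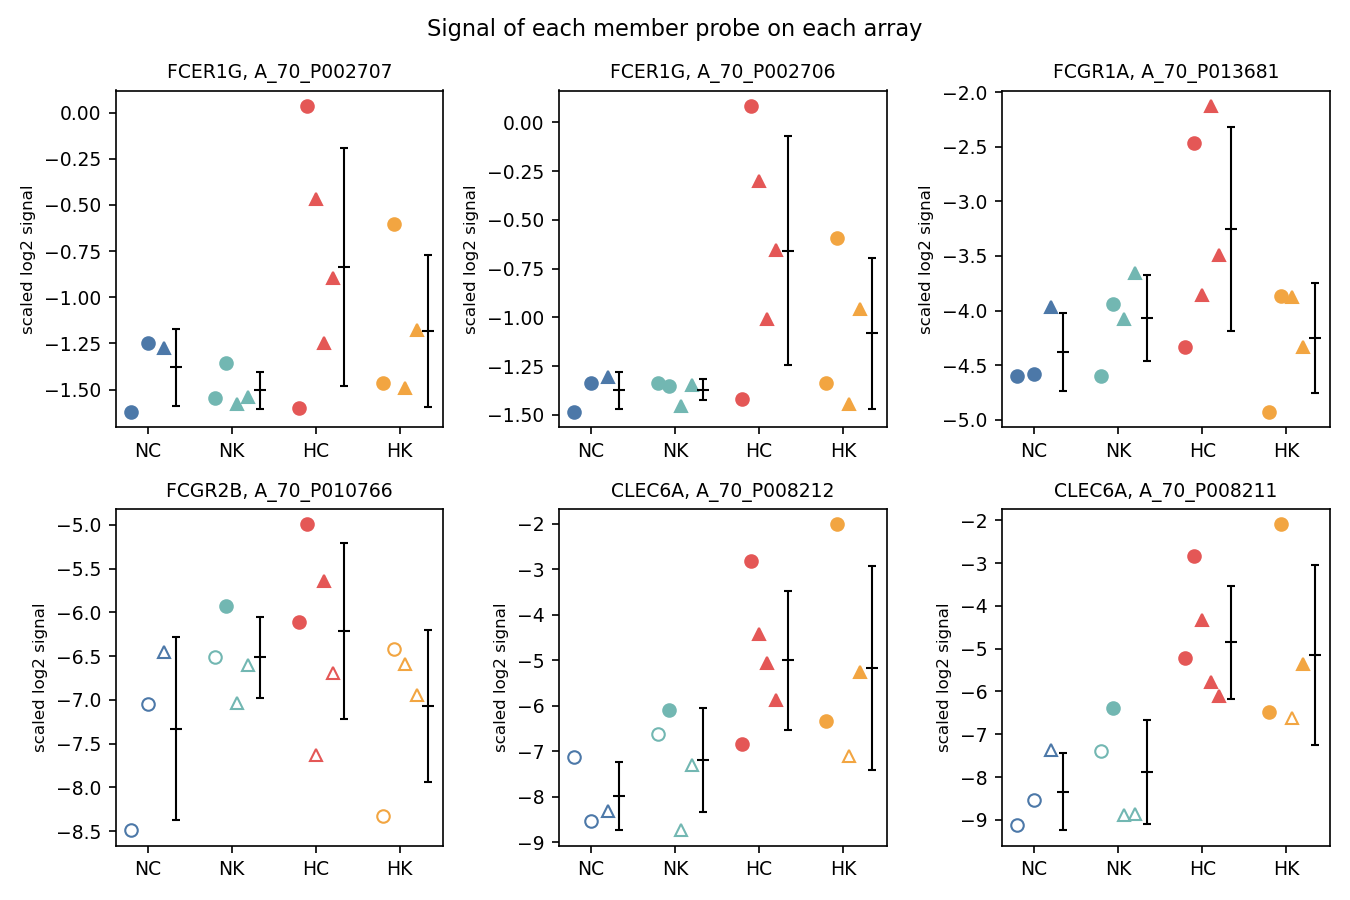
Scaled log2 signal of each probe on each array by group, with circles for slide 1, triangles for slide 2, open symbols for spots not well above background, and bars for the group mean and SD. Both CLEC6A probes lie higher on the 5 HC arrays than on the 3 NC arrays, and FCER1G is highest in HC replicate 2.

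FCER1G, the signaling subunit, gave strong signal on all 16 arrays with both probes. With A_70_P002706 the log2 signals in NC were -1.49, -1.34 and -1.31, and those in NK were -1.34, -1.35, -1.45 and -1.35. In HC they were -1.42, 0.08, -0.30, -1.01 and -0.65, and in HK -1.34, -0.59, -1.44 and -0.96. Normoxic fetuses were close together, while in HC 4 of 5 arrays lay above every NC array and replicate 1 lay among them. Means were -1.38 ± 0.10 (SD, n = 3) in NC, -1.37 ± 0.05 (SD, n = 4) in NK, -0.66 ± 0.59 (SD, n = 5) in HC and -1.08 ± 0.39 (SD, n = 4) in HK. The log2 signal of FCER1G rose by 0.72 in HC-NC (SE 0.27, 95% confidence interval 0.13 to 1.30, adjusted p = 0.351). The exact permutation test, two-sided, gave p = 0.107 for these arrays. The call was lost without NC replicate 1 (0.66) and when HC and NC were fitted without the other groups.

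The other FCER1G probe, A_70_P002707, did not pass the criterion in HC-NC, although it differs from the first by 1 base of position. It passed with the replicate number as a block (0.61), with normexp (0.71, or 0.36 relative to the median of all probes), with array weights (0.69) and without HC replicate 1 (0.74). The difference was 0.33 without HC replicate 2, 0.42 without NC replicate 1 and 0.30 with the authors' deposited values. Its log2 signals were -1.62, -1.24 and -1.27 in NC and -1.55, -1.35, -1.58 and -1.54 in NK. In HC they were -1.60, 0.04, -0.47, -1.25 and -0.90, and in HK -1.46, -0.60, -1.49 and -1.18. HC replicates 2 and 3 and HK replicate 2 were the highest with both probes. The difference HC-NC was 0.54 (SE 0.30, 95% confidence interval -0.10 to 1.19, adjusted p = 0.56). Over the 16 arrays the signals of the FCER1G probes had a Pearson correlation of 0.98 and a Spearman correlation of 0.94. HC replicate 4 lay above every NC array with A_70_P002706 and below NC replicate 2 with A_70_P002707. For both probes the levels ran from HC to HK to the normoxic groups, and no neighbors in that order differed by more than the larger of their SDs.

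FCGR1A, the activating receptor for IgG, was measured by a single probe that was well above background on all 16 arrays. Its log2 signals were -4.60, -4.58 and -3.97 in NC and -4.60, -3.94, -4.08 and -3.65 in NK. In HC they were -4.34, -2.47, -3.86, -2.12 and -3.49, and in HK -4.93, -3.87, -3.88 and -4.33. HC replicates 4 and 2 stood above all other arrays, 4 of 5 HC arrays lay above every NC array, and the HK arrays lay in the range of the normoxic ones except for replicate 1, the lowest of all. FCGR1A rose in HC-NC by 1.13 (SE 0.44, 95% confidence interval 0.19 to 2.06, adjusted p = 0.366), a 2.18-fold difference, with an exact permutation p of 0.0714. The call was lost without NC replicate 1 (1.02), NC replicate 2 (1.03), HC replicate 2 (0.93) or HC replicate 4 (0.84). It was also lost with normexp background correction (1.42) and when HC and NC were fitted without the other groups. With the authors' deposited values the probe passed the criterion, at a smaller difference of 0.22.

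In HK-HC the log2 signal of FCGR1A fell by 1.00 (SE 0.40, adjusted p = 0.969), and the exact permutation p was 0.0952. It was the only 1 of the 6 probes past the criterion in HK-HC, where 1.87% of all probes tested were lower and 2.86% higher at the criterion, 4.74% in either direction. The groups overlapped, and 1 of 4 HK arrays lay below every HC array. Each HK array lay below the HC array of its own replicate number, for replicate 3 by little (-3.88 in HK and -3.86 in HC). These groups were not taken as paired, so this is a description only. This call was lost without HC replicate 2 (-0.80), HC replicate 4 (-0.71), HK replicate 1 (-0.77) or HK replicate 4 (-0.97). It was also lost with normexp background correction (-0.53) and when HK and HC were fitted alone. With the authors' deposited values the probe passed the criterion, at a smaller difference of -0.20. Group means were -4.38 ± 0.36 (SD, n = 3) in NC, -4.07 ± 0.40 (SD, n = 4) in NK, -3.26 ± 0.93 (SD, n = 5) in HC and -4.25 ± 0.50 (SD, n = 4) in HK. The order was thus HC, NK, HK and NC, and no neighbors in it differed beyond the larger SD. In HK-NK the difference was -0.18 (SE 0.42, 95% confidence interval -1.09 to 0.72).

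FCGR2B, the inhibitory receptor, was near background. The arrays with its probe well above background were 3 of 5 in HC, 1 of 4 in NK, 0 of 3 in NC and 0 of 4 in HK. Its log2 signals were -8.49, -7.04 and -6.46 in NC and -6.51, -5.92, -7.03 and -6.60 in NK. In HC they were -6.11, -4.99, -7.63, -5.64 and -6.70, and in HK -8.33, -6.42, -6.59 and -6.94. HC replicates 2 and 4 were the highest, as for FCGR1A, but HC replicate 3 lay below 2 of the 3 NC arrays. For a group with no array well above background only a bound can be given, in which each of its arrays is set to its lowest signal well above background or to the probe's own signal where that is higher. On that basis the HC mean was at least 1.40-fold that of NC and at least 1.45-fold that of HK. Here and below, such bounds allow for background only and not for the spread between arrays. An adjusted p given with them belongs to the limma difference without the bound. For FCGR2B the confidence interval of that difference was -0.15 to 2.38 in HC-NC (adjusted p = 0.538). In HK-HC it was -2.02 to 0.30 (adjusted p = 0.969), and both intervals included 0. FCGR2B did not pass the criterion in any of the 4 comparisons. HC had the highest mean, within the larger SD of that of NK, and NK, HK and NC, with 1 of 11 arrays well above background between them, are given no order.

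CLEC6A, the lectin, was near background in normoxia. With both of its probes the arrays well above background were 5 of 5 in HC, 3 of 4 in HK, 1 of 4 in NK and 0 of 3 in NC. With A_70_P008212 the log2 signals were -7.13, -8.52 and -8.30 in NC and -6.63, -6.10, -8.72 and -7.31 in NK. In HC they were -6.85, -2.82, -4.43, -5.06 and -5.86, and in HK -6.34, -2.02, -7.10 and -5.26. Every HC array lay above every NC array, and HK replicate 2 and HC replicate 2 were far above the rest. The second probe, A_70_P008211, gave -9.13, -8.54 and -7.37 in NC and -7.39, -6.40, -8.89 and -8.85 in NK. Its HC signals were -5.23, -2.84, -4.32, -5.79 and -6.10, and its HK signals were -6.48, -2.09, -6.61 and -5.37. HK replicate 2 was again the highest array and NK replicate 2 the highest in normoxia.

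HC and NC did not overlap with either CLEC6A probe, which held for 2 of the 6 probes with HC the higher, and for 2.89% of all probes tested with HC higher, 4.92% with HC lower and 7.81% in either direction. HC exceeded NC at least 3.23-fold with A_70_P008212 (adjusted p = 0.299) and at least 3.58-fold with A_70_P008211 (adjusted p = 0.199). For each probe the exact permutation p was 0.0357, which is the smallest that 3 against 5 arrays allow. Of 24 such tests, 6 probes in 4 comparisons, 2 gave a p under 0.05, and these are not corrected for their number. As 8 of the 9 arrays with CLEC6A well above background were HC or HK arrays, the probes came into the test mainly through the groups where they are high, and the p and the lack of overlap are descriptions only. The call was lost with normexp background correction, at 1.61 and 1.67 on the log2 scale, and with the authors' deposited values, at 0.16 and 0.17. In the deposited values of NC replicate 1 the 10th percentile was 8.07 and the median 8.69, so that dim probes covered a narrow range, and the part of this in the smaller CLEC6A values was not tested.

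Under ketamine the CLEC6A probes disagreed on the call. A_70_P008211 differed in HK-NK by 2.75 (SE 0.96, 95% confidence interval 0.68 to 4.81, adjusted p = 0.9), with an exact permutation p of 0.0857. It was 1 of 6 probes past the criterion in HK-NK, where 2.81% of all probes tested were higher and 2.46% lower at the criterion, 5.26% in either direction. The call was lost with normexp (0.51) and with the authors' deposited values (0.24). A_70_P008212 differed by 2.01 (SE 1.02, 95% confidence interval -0.17 to 4.19, adjusted p = 0.945) and did not pass, although it did without HK replicate 1 (2.40) or HK replicate 3 (2.65). Without HK replicate 2, the highest array, the differences were 1.73 with A_70_P008211 and 0.96 with A_70_P008212. With each probe 2 of 4 HK arrays lay above every NK array, and the groups overlapped. Of all probes tested, 1.87% had HK and NK apart with HK higher, 1.46% with HK lower, and 3.32% in either direction. Because only 1 of 4 NK arrays was well above background, both values rest partly on signals near it and are not measured folds. The probes passed the filter mainly through hypoxic arrays, so the calls, p-values and counts here are descriptions only.

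The mean CLEC6A levels were highest in HC and HK with both probes. HK exceeded NK by more than the larger SD with A_70_P008211 (2.75 against 2.10) but not with A_70_P008212 (2.01 against 2.24). The normoxic groups, with 1 of 7 arrays well above background, are given no order. Between HC and HK the difference HK-HC was -0.18 (SE 0.97) with A_70_P008212 and -0.28 (SE 0.91) with A_70_P008211, each within the SD of either group. The HK group was the most spread, with SDs of 2.24 and 2.10 (n = 4).

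**Figure D2:**
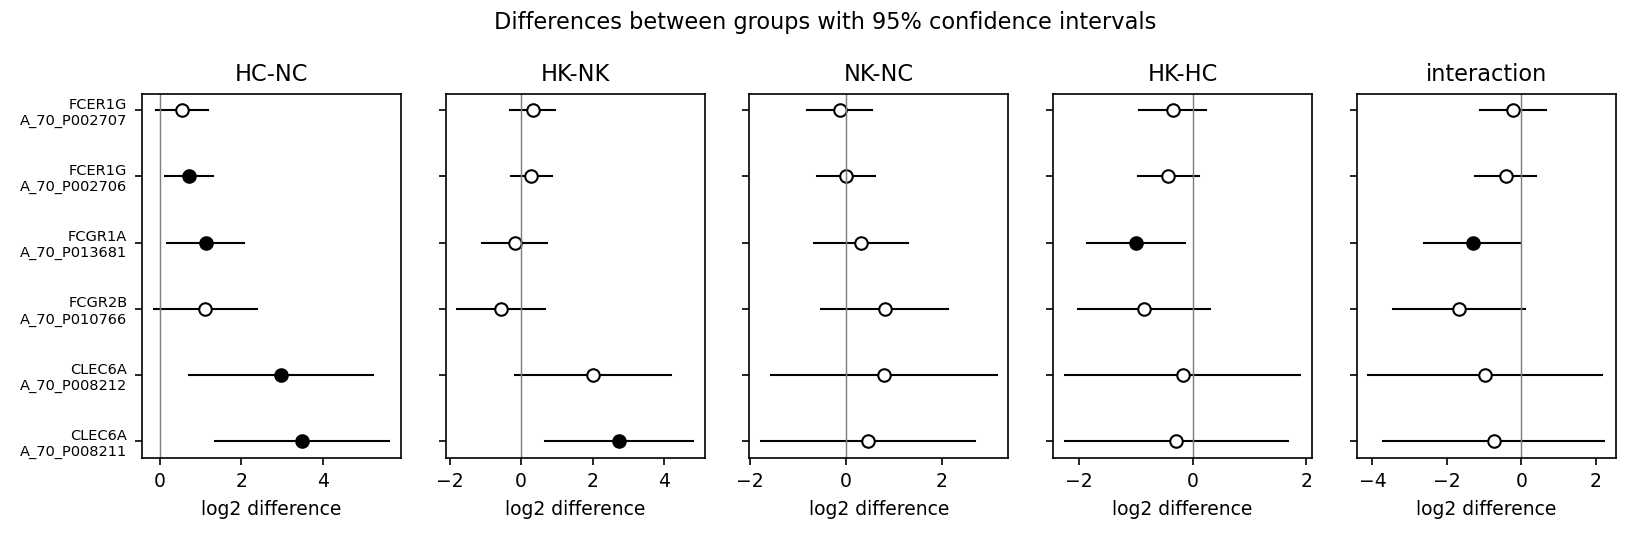
Log2 difference of each probe in each comparison and for the interaction of ketamine with hypoxia, with 95% confidence intervals from limma and filled symbols for probes past the criterion. In HC-NC 4 of 6 probes are filled and in NK-NC 0 of 6.

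Ketamine in normoxia left 0 of 6 probes past the criterion in NK-NC, where 0.71% of all probes tested were higher and 1.07% lower at it, 1.78% in either direction, and 0 passed in limma after adjustment. The NK and NC arrays overlapped for 6 of 6 probes, while 1.36% of all probes tested had the groups apart with NK higher, 2.17% with NK lower, and 3.52% in either direction. The exact permutation p lay between 0.343 and 0.857, and 3 against 4 arrays cannot give less than 0.0571. FCGR1A differed by 0.31 (95% confidence interval -0.67 to 1.29), by 0.17 without NK replicate 4 and by 0.52 without NC replicate 3. With normexp it differed by 0.89, or 0.61 relative to the median of all probes, and with the authors' deposited values by 0.051. Each group enters more than 1 of the comparisons, so these share arrays and their values are set side by side without a measure of likeness. In HC-NC 6 of 6 probes had a positive difference, and in HK-HC 6 of 6 had a negative one, with the HC arrays entering both comparisons. With normexp the HK-HC value of FCGR2B was 0.0033, or -0.049 relative to the median of all probes. The HK-HC sign turned for the CLEC6A probes with the authors' deposited values (0.049 and 0.059). In HK-HC 0 of 6 probes had groups apart, against 0.359% of all probes tested with HK lower, 0.646% with HK higher and 1% in either direction.

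The interaction of ketamine with hypoxia, the difference HK-HC minus NK-NC, was tested in the same fit. For FCGR1A it was -1.31 (SE 0.61, 95% confidence interval -2.61 to -0.00, adjusted p = 1) and passed the criterion, as 1 of 6 probes. Of all probes tested, 0.989% had a negative and 2.45% a positive interaction at the criterion, 3.44% in either direction. This call was lost with slide as a block (-1.21), with normexp (-1.43), with the authors' deposited values (-0.25), without a filter on dim probes, and without any 1 of 10 of the 16 arrays, where it lay between -1.37 and -1.02. The FCER1G probes had interactions of -0.22 and -0.43, or -0.0040 and -0.24 without HC replicate 2, and did not pass the criterion. FCGR2B and CLEC6A did not pass it either, and as no NC array was well above background for them their interactions have no measured size.

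**Figure D3:**
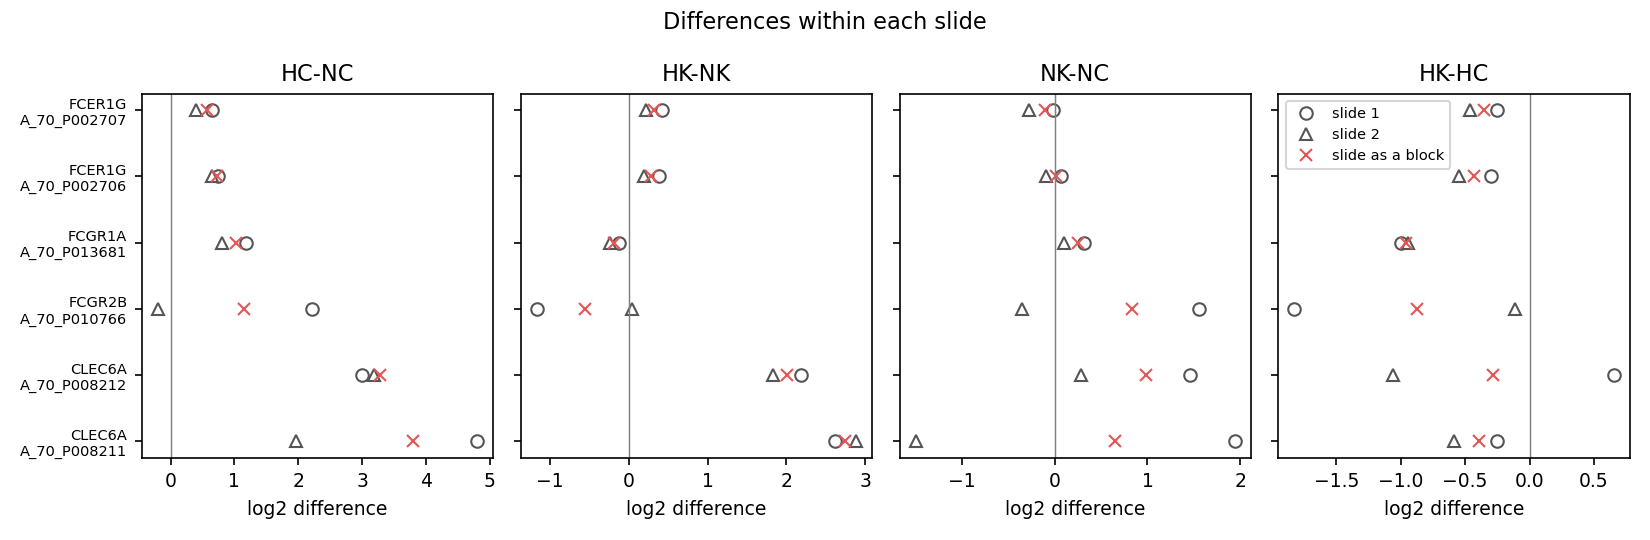
Log2 difference of each probe within slide 1 (circles) and slide 2 (triangles) and with slide as a block (crosses), for the 4 comparisons. In HC-NC both slides lie above 0 for every probe but FCGR2B, and in NK-NC the slides lie on either side of 0 for FCGR2B and for 1 probe each of CLEC6A and FCER1G.

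Within slide 1 and slide 2 the HC-NC difference of FCER1G was 0.74 and 0.65 with A_70_P002706, and 0.65 and 0.40 with A_70_P002707. For FCGR1A the values were 1.19 and 0.81, and with slide as a block 1.03. For CLEC6A they were 2.99 and 3.18 with A_70_P008212 and 4.80 and 1.97 with A_70_P008211, with block values of 3.28 and 3.79. For FCGR2B they were 2.22 and -0.20. The slide 2 values rest on a single NC array, and those of CLEC6A and FCGR2B are set against NC signals not well above background, so their size is not a measured fold. In HK-HC FCGR1A was -0.997 and -0.947 within the slides and FCGR2B -1.83 and -0.11, while CLEC6A turned sign with A_70_P008212 (0.65 and -1.06) and was -0.25 and -0.59 with A_70_P008211. In HK-NK CLEC6A was 2.61 and 2.88 with A_70_P008211 and 2.19 and 1.84 with A_70_P008212, and FCGR2B was -1.16 and 0.05. In NK-NC the slides differed in sign for FCGR2B (1.55 and -0.36), for CLEC6A A_70_P008211 (1.94 and -1.50) and for FCER1G A_70_P002706 (0.06 and -0.09).

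HC replicate 2 was the highest or second highest array for all 6 probes. FCER1G and CLEC6A were also high in HC replicate 3 and HK replicate 2, and FCGR1A and FCGR2B in HC replicate 4. Over the 16 arrays the Pearson correlation of FCER1G A_70_P002706 was 0.82 with CLEC6A A_70_P008212 and 0.57 with FCGR1A, and that of FCGR1A with FCGR2B was 0.71. After group means were subtracted these were 0.79, 0.35 and 0.64. The arrays share their groups and slides, so these are descriptions without a test.

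Among 830 other gene names, those with the signal pattern most like that of a gene were taken by Pearson correlation over the 16 arrays. For FCER1G these were ITGB2 (0.97), the integrin chain of leukocytes, SLC2A5 (0.96), a fructose transporter, CD86 (0.93), a costimulatory ligand, CTSS (0.91), a lysosomal protease, and CYBB (0.91), the catalytic subunit of the phagocyte oxidase. Subtracting group means left them between 0.88 and 0.97. For FCGR1A they were MCL1 (0.89), CD40 (0.88), MX2 (0.85), IFNAR2 (0.81) and IL18 (0.81), and between 0.72 and 0.87 after the same subtraction. For CLEC6A they were MHCII-DRB1 (0.88), OVAR-DQA1 (0.87), CD5 (0.84), PSMB8 (0.84) and TNF (0.82), of which the first pair are class II histocompatibility genes. FCGR2B, near background, had lower values, with TIMELESS (0.75), TNFRSF1A (0.74), IL18 (0.73), PLAUR (0.73) and FCGR1A (0.71). By Spearman correlation 3 of these 5 names stayed for FCER1G, 2 for FCGR1A, 2 for FCGR2B and 1 for CLEC6A.

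Of 46 genes of Fc receptor and ITAM signaling the array named 10 and 8 were tested. In HC-NC 4 were higher at the criterion and 0 lower, against 4.54% higher and 6.27% lower over all probes tested. The median difference was 0.82, or 0.37 with the genes at a lower bound set to it, against -0.03 over all probes tested. FCER1A was well above background on 3 HC arrays, 2 HK arrays and 0 normoxic ones and so, like FCGR2B and CLEC6A, passed the filter mainly through the hypoxic groups, and the counts and medians are descriptions only. The 2 that are not among the 4 receptor genes were FCER1A, the alpha chain of the IgE receptor, for which HC exceeded NC at least 1.01-fold (adjusted p = 0.38), and RAC1, a GTPase of phagocytosis, which rose by 0.25 (SE 0.10, adjusted p = 0.392). The other ITAM adaptors gave other values. TYROBP (DAP12), known as the partner of TREM2 in microglia, was well above background on all arrays and differed by -0.06 in HC-NC (SE 0.10) and by -0.03 in HK-HC (SE 0.09). CD247, the zeta chain of T and NK cells, differed by 0.02 in HC-NC (SE 0.21). SYK, LYN, CARD9, INPP5D, PTPN6 and PLCG2 were not named on the array. Without the receptor genes the 5 genes left had a median of 0.25, or 0.02 with FCER1A at its bound. In HK-HC 1 of the 8 passed as lower, FCGR1A, against 1.87% of all probes tested. In HK-NK 0 did, against 5.26% of all probes in either direction.

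Of 54 Fc receptors and C-type lectins 13 were on the array and 11 were tested. In HC-NC 6 were higher at the criterion and 0 lower, against the same 4.54% and 6.27% of all probes, with a median of 1.12, or 0.48 with lower bounds. Of these 6, CLEC6A, FCER1A and CLEC4E passed the filter mainly or wholly through hypoxic arrays, so that the count is a description only. CLEC4E (mincle), a lectin that also signals through FCER1G, had signal well above background on 2 of 5 HC arrays, 1 of 4 HK arrays and 0 normoxic ones, and HC exceeded NC at least 1.81-fold (adjusted p = 0.378). SELP, the platelet and endothelial selectin, rose by 4.15 in HC-NC and by 2.52 in HK-NK (SE 0.98 and 0.95, adjusted p = 0.168 and 0.9). CLEC7A (dectin-1), which carries its own ITAM-like motif, differed by 0.42 (SE 0.56), and FCGRT, the neonatal Fc receptor, by 0.16 (SE 0.12). Without the receptor genes 3 of 7 genes passed in HC-NC, FCER1A and CLEC4E among them, and the median of the 7 was 0.42, or 0.16 with these genes at their bounds. In HK-HC FCGR1A alone passed, as lower, against 1.87% of all probes tested. In HK-NK SELP alone did, as higher, against 2.81%.

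**Figure D4:**
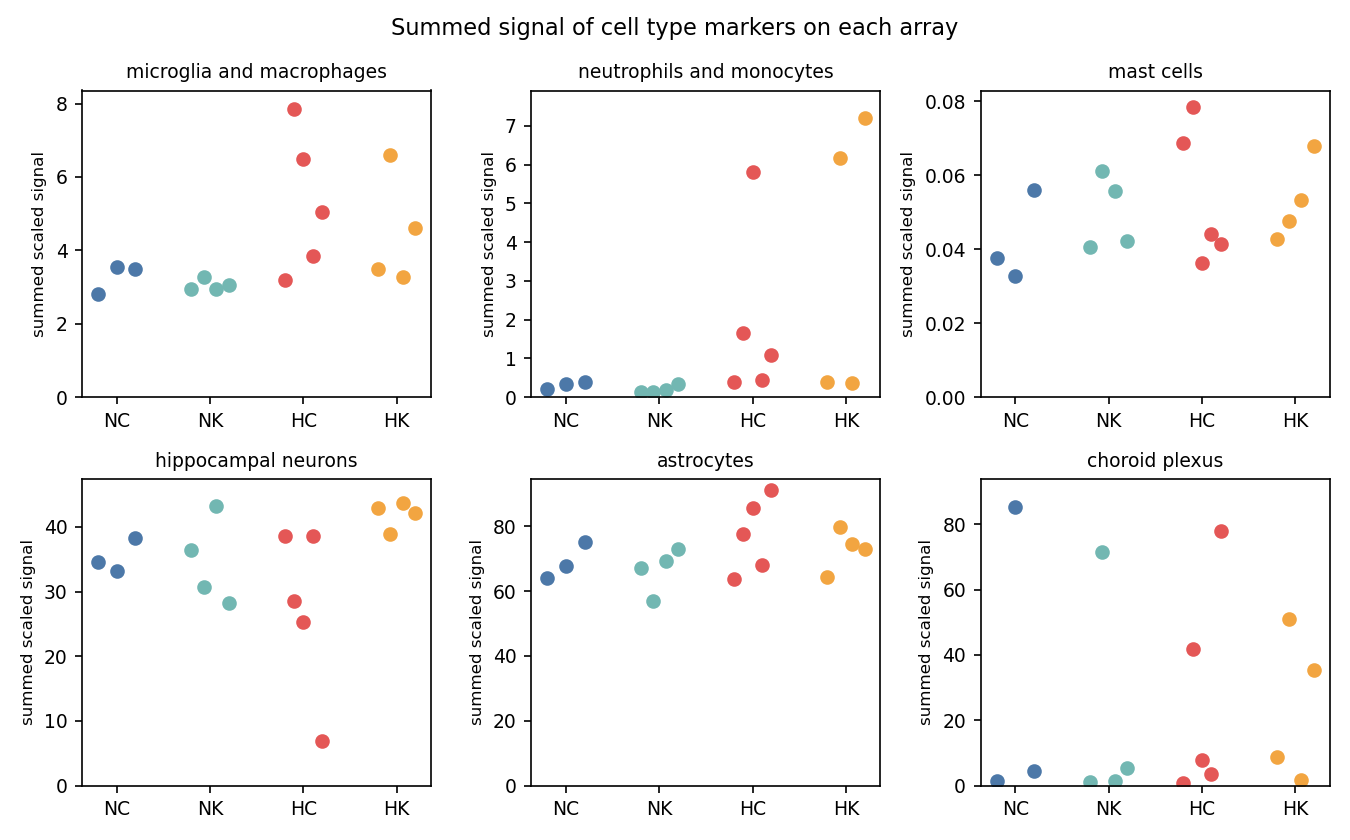
Summed scaled signal of the marker genes of 6 cell types on each array, by group, in units of the 75th percentile of the array. HC replicates 2 and 3 and HK replicate 2 have the highest sums of microglia and macrophage markers.

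Of 20 markers of microglia and macrophages 7 were named and tested, and their summed signal, in units of the 75th percentile, was 2.82, 3.54 and 3.50 in NC and 2.93, 3.26, 2.95 and 3.05 in NK. It was 3.19, 7.85, 6.49, 3.84 and 5.05 in HC, and 3.48, 6.60, 3.27 and 4.62 in HK. HC replicates 2 and 3 and HK replicate 2 were the highest, the arrays that were also highest for FCER1G. CTSS made up 59.4% of this sum. In HC-NC 6 of 7 markers were higher, with a median of 0.66, and 1 of 7 passed the criterion, CD14 (1.97, SE 0.45), against 4.54% of all probes higher. In HK-HC 1 of 7 passed, again CD14 (-1.10, SE 0.41), against 1.87% lower, and in HK-NK 1 of 7, LYZ (3.33, SE 1.17), against 2.81% higher. ITGAM differed by 0.51 (SE 0.36) in HC-NC and TYROBP by -0.06 (SE 0.10). The part of these cells in the results was not tested.

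Markers of neutrophils and monocytes were 4 of 14 on the array, with CATHL3 as the most abundant at 89.4% of the sum. Their sum was 0.199, 0.335 and 0.387 in NC and 0.140, 0.135, 0.174 and 0.334 in NK. It was 0.389, 1.65, 5.82, 0.433 and 1.08 in HC, and 0.389, 6.17, 0.354 and 7.21 in HK. The high arrays were HC replicate 3 and HK replicates 2 and 4. Of 3 tested genes 2, LTF and CATHL3, passed the criterion in HK-NK as higher, against 2.81% of all probes tested. CXCR1, the remaining tested gene, went the other way in HK-NK (-0.66, SE 0.64) and did not pass. The part of these cells in the CLEC6A values was not tested. Mast cell markers, 4 of 8 on the array, had sums of 0.0327 to 0.0559 in NC and 0.0362 to 0.0784 in HC, led by KIT, which differed by -0.31 in HC-NC. TPSB2 and FCER1A, 2 of 3 tested, passed the criterion in HC-NC as higher, against 4.54% of all probes tested. FCER1A came into the test through hypoxic arrays alone, so this count is a description only. TPSB2 also passed the criterion as higher in NK-NC, against 0.71%, and as negative for the interaction, against 0.989%. Only 1 of 3 NC arrays was well above background for TPSB2, and no size is given.

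T and NK cell markers had sums of 0.730 to 0.808 in NC and 0.714 to 1.02 in HC, led by CD247, and no array had CD4 well above background. B cells were represented by CR2 alone, with sums of 0.00356 to 0.0155 in NC and 0.00309 to 0.0186 in HC. Red blood cell markers ranged from 8.49 to 15.7 in NC and from 6.10 to 34.8 in HC, led by HBB. Neuronal markers, 5 of 13, had a median difference of -0.66 in HC-NC, against -0.03 over all probes tested, and GRIA1 (-0.65) and GRIA2 (-0.42) passed the criterion, against 6.27% of all probes lower. Their sum, led by SST, was 6.92 in HC replicate 5 and at least 25.2 in the other HC arrays. Astrocyte markers, led by AQP4, summed to 64.2 to 75.1 in NC and 63.6 to 91.1 in HC, and in HC-NC 3 of 5 were higher and 2 lower with a median of 0.07, among them GJA1, which passed the criterion (0.74, against 4.54% of all probes higher), and SLC1A2 (-0.40) and SLC1A3 (-0.36), which did not. Endothelial markers, led by PECAM1, summed to 1.03 to 1.18 in NC and 0.773 to 1.61 in HC, and in HK-NK KDR passed (-0.51, against 2.46% of all probes lower), while PECAM1 (0.23) and FLT1 (0.41) did not. Choroid plexus markers, of which TTR made up 98.1%, varied within every group, reaching 85.4 in NC and ranging from 0.930 to 78.1 in HC. Oligodendrocyte markers were not named on the array. The part of these lists in the results was not tested.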

How the data were processed

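Total RNA of 16 hippocampi, with RNA integrity numbers of 7.7 to 9.2 per the labels, was hybridized to 16 arrays on 2 slides of 8. The authors deposited scanner files from Feature Extraction 10.1.1.1. Per the file headers, the software subtracted background from the intensity of the spots and removed spatial trends array by array, and arrays were not normalized to each other. The authors also deposited a table of log2 values in which the arrays share their quantiles; its background step is not given in the sources used here. The submitters' processing notes name limma and R 2.15.1. Here log2 of the processed intensity minus the 75th percentile of each array was used, without control spots and outlier spots. Of 15008 probes, the 12543 with 3 or more arrays well above background were fitted with limma 3.58.1 in R 4.3.3, in a single model of 4 groups without blocks. The fit was tested on simulated data. Adjusted p-values cover all probes tested. Single comparisons of the 6 probes used exact permutation tests of the difference of means (scipy 1.17.1), two-sided by doubling the smaller tail. This definition was adopted after p-values that counted absolute differences had been seen; 0 of 24 tests lay on another side of 0.05 with it, and 2 were under 0.05 with either. The smallest p possible is 0.0571 for 3 against 4 arrays, 0.0357 for 3 against 5, 0.0286 for 4 against 4 and 0.0159 for 4 against 5.

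Of the 1585 probes with a gene name, 726 were matched by accession, 484 by symbol, 125 by gene identifier and 27 by an older name, TYROBP and CYBB among these, to the RefSeq table of assembly ARS-UI_Ramb_v3.0, and 223 kept the array's own name. A gene in a list was represented by its probe with the highest mean. The genes named were the 4 receptor genes, the 5 names most like each, list genes past the criterion in HC-NC, HK-HC or HK-NK, up to 8 per list and comparison, and genes coupled to the receptors. Some marker genes and other list genes are named in addition after their values were seen. The members and lists were chosen with earlier results of these data known. NC and NK arrays of one replicate number deviated together, with correlations over all probes tested of 0.21 to 0.37 for 3 pairs against a mean of -0.10 for other numbers, and since each pair was over 0.1 the numbers were taken to pair these groups. NC replicate 3 was closer to NK replicate 4 (0.23) than to NK replicate 3 (0.21). HC and HK arrays of 1 number had 0.07 to 0.39, with 3 of 4 pairs over 0.1, and were not taken as paired. Between oxygen conditions, 3 of 4 pairs of 1 number were over 0.1 for NK with HK and 3 of 4 for NK with HC. For NC with HC it was 1 of 3, and for NC with HK 0 of 3. The number comes from the sample labels, which do not tie it to a pregnancy. The paper describes all but a singleton of the fetuses as twins, with each pregnancy assigned to normoxia or hypoxia. A control and a ketamine fetus may therefore share a pregnancy. Arrays of the same replicate number also lay on the same slide and in the same row of it. A shared pregnancy and a shared array position therefore cannot be told apart. Alternatives covered background correction, scaling, the authors' deposited values, the filter on dim probes, the slide or replicate number as a block, the groups fitted, array weights, the prior, and each array left out. The number of arrays limits the precision.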

Additional observations from a re-analysis of the deposited data

Results flagged for a closer look

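In NK the FCER1G probe A_70_P002706 had a log2 signal of -1.45 in replicate 3, which lay apart from the other 3 arrays of its group. The group was tight, with an SD of 0.05, and chance singles out about 1 in 20 groups checked this way. Of 18 combinations of probe and group checked, 1 stood out.

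The effect of ketamine on FCGR1A differed between hypoxia and normoxia by -1.31 on the log2 scale at the criterion, and the adjusted p was 1.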

How the results depend on the processing

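The 4 probes past the criterion in HC-NC became 2 with normexp background correction, 2 with the authors' deposited values, 2 when only the groups compared were fitted, 2 of the 3 member probes well above background on all 16 arrays, and 0 at an adjusted p under 0.05 in limma. With array weights all 6 passed it, and CLEC6A A_70_P008211 had an adjusted p of 0.0478 there, against 0.199 without weights and up to 0.775 over the other settings. All probes past the criterion in HC-NC also rose with array weights, from 1356 to 1879. The count of 1 in HK-HC became 0 with normexp, 0 with only the groups compared, 0 after adjustment and 2 with array weights. In HK-NK the count of 1 became 0 with normexp, 0 with the authors' deposited values, 0 among probes well above background on all 16 arrays and 0 after adjustment. For the interaction the count of 1 became 0 with normexp, 0 with the authors' deposited values, 0 without a filter on dim probes, 0 with slide as a block, 0 after adjustment and 2 with array weights. In NK-NC it was 0 in each setting. With 1 array left out at a time the counts ranged from 2 to 5 in HC-NC, from 0 to 2 in HK-HC, from 1 to 2 in HK-NK and from 0 to 2 for the interaction.

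A block for the replicate number left 5 probes past the criterion in HC-NC, A_70_P002707 of FCER1G being the added one, and 2 for the interaction. With it all probes past the criterion in HC-NC numbered 1561, against 1356 without a block. A block of replicate number within each oxygen group was chosen after seeing the data; HC-NC and HK-NK could not be estimated with it, and the NK-NC difference of FCER1G A_70_P002706 was -0.0058. All probes past the criterion in NK-NC numbered 223, and 386 with that block, 147 among probes well above background on all arrays, 407 with array weights and 18 with normexp. In HK-HC 594 became 1203 with that block, 1055 with the replicate number as a block, 949 with array weights and 92 with normexp. In HK-NK 660 became 1068 with the replicate number as a block and 73 with normexp, and for the interaction 431 became 760, 666, 650 and 98 in the order of HK-HC. In HC-NC 1356 became 585 with normexp. Without HC replicate 1 the number was 1071 in HK-HC and 656 for the interaction, and over all arrays left out it ranged from 409 to 1071 and from 323 to 656.

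With normexp the median of all probes was 0.34 in HC-NC, 0.28 in NK-NC and -0.31 for the interaction, against -0.03, 0.0029 and 0.01 without it. Relative to the normexp median the HC-NC differences were 1.08 for FCGR1A and 1.27 and 1.33 for CLEC6A. With normexp the signs turned for FCER1G A_70_P002707 in NK-NC (0.14) and FCGR2B in HK-HC (0.0033), but not relative to the median of all probes (-0.15 and -0.049), and for FCGR2B in HK-NK (0.20, or 0.12 relative to it). The NK-NC value of FCER1G A_70_P002706 with normexp was 0.21, or -0.076 relative to it. Other signs turned as follows, and the cause was not tested. For FCER1G A_70_P002706 in NK-NC they turned with quantile normalization (-0.0082) and array weights (-0.00034), and over arrays left out the value ranged from -0.052 to 0.038. With the authors' deposited values CLEC6A turned in NK-NC (-0.0055 and -0.0037), HK-HC (0.049 and 0.059) and the interaction (0.054 and 0.062), and FCGR2B in HK-NK (0.0023). With arrays left out CLEC6A ranged in HK-HC from -1.23 to 0.47 with A_70_P008212 and from -1.30 to 0.22 with A_70_P008211, which in NK-NC ranged from -0.031 to 0.96, and FCGR1A in HK-NK from -0.36 to 0.043. Signals near background limit the values of FCGR2B and CLEC6A in normoxia.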
